A study of Homo sapiens with 12 samples.

Results

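The BCL2 family decides at the mitochondrion whether a cell enters apoptosis, and 10 of its genes were read here in renal cancer cells under single and combined drug treatment. The 10 genes were picked by symbol and role from the 17085 genes of the count table. They are the anti-apoptotic BCL2, BCL2L1 (BCL-xL) and MCL1, the BH3-only BCL2L11 (BIM), BBC3 (PUMA), PMAIP1 (NOXA), BID and BMF, and the effectors BAX and BAK1. All 10 passed the filter on low counts, which left 12841 genes tested.

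RNA sequencing was done on 786-O, a human clear cell renal carcinoma line with no functional VHL. All groups used this one line as wild-type, here meaning without engineered genetic changes. Cells received the vehicle DMSO, everolimus, SGI-1027 or both drugs for 24 h, with 3 libraries in each of the 4 groups. Everolimus inhibits mTOR complex 1 and is used against advanced renal cancer, and SGI-1027 is a quinoline-based inhibitor of DNA methyltransferases. SGI-1027 was given at 1.5 µM alone and in the combination. Everolimus is labelled 5 µM in the sample records of both groups that received it, and the study's methods give the same dose, whereas the treatment protocol in the records gives 10 µM for everolimus alone and 5 µM in the combination. Were that protocol right, every comparison of the combination with everolimus, and every comparison with the sum of the single drugs, would also hold a difference in dose. One cell line was used, and no record ties the replicates of a group to separate cultures, so p-values measure the spread between libraries only.

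In this family the anti-apoptotic proteins hold the effectors BAX and BAK1 in check, and the BH3-only proteins sense stress and bind the anti-apoptotic proteins, the effectors or both. When the effectors are set free they form pores in the outer mitochondrial membrane, cytochrome c leaves, and the apoptosome activates the caspases. Much of this control acts on proteins, through cleavage, phosphorylation and turnover, and transcript levels do not show it.

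The libraries held between 37046231 and 41516976 counts, and the lowest Pearson r between replicates was 0.994, across genes, which are not independent. By a chi-square of their counts per gene, SGI-1027 replicate 3 stood apart from the other 2 of its group (16.6 and 16.3, against 3.05 between those) and DMSO replicate 1 less so (10.4 and 13.3, against 3.62). Pairs of everolimus or combination libraries gave 3.37 to 5.53. Leaving out either of these 2 libraries changed calls of BAX and BAK1 alone among the 10 genes, and the values without them stand beside those results. All 8 markers set for renal epithelium and 786-O were present in every library, with PAX8, a renal lineage factor, between 77.6 and 119 FPKM. The 5 leukocyte markers summed to 0 to 17 counts a library, the 4 endothelial markers to 12 to 27 and the 3 hepatocyte markers to 0 to 5. Because RNA was taken from whole cultures, fewer cells expressing a gene and less RNA per cell cannot be told apart. The study reports that the combination, and neither drug alone, raised release of lactate dehydrogenase from renal cancer cells, which it reads as membrane damage. That rise came at times before the RNA was taken. Combination and interaction values may therefore partly reflect which cells were left, and this was not tested.

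Levels of the 10 genes were first compared per gene length, in FPKM, the authors' counts scaled for gene length and library total. In DMSO the 2 anti-apoptotic genes MCL1 and BCL2L1 were the highest, at 50.3 ± 1.41 and 49.6 ± 1.75 FPKM (SD, n = 3), and their libraries overlapped. The effectors BAX and BAK1 followed at 40.4 ± 2.55 and 23.1 ± 0.999 FPKM, with BID between them at 27.7 ± 0.941 FPKM. PMAIP1 stood at 17.8 ± 0.698 FPKM. The other BH3-only genes were low, with BMF at 5.82 ± 0.41 FPKM, BCL2L11 at 2.45 ± 0.116 FPKM and BBC3 at 1.48 ± 0.147 FPKM. BCL2, which gave the family its name, was the lowest of the 10 at 0.411 ± 0.0246 FPKM. Apart from MCL1 and BCL2L1, no neighbours in this order had overlapping libraries. BMF held the 7th place in DMSO, the 5th with everolimus, the 4th with SGI-1027 and again the 7th with both drugs. Its places with the single drugs are not resolved. With everolimus its libraries overlapped those of BID, and with SGI-1027 neighbours from BMF through BAK1 and BID to PMAIP1 overlapped. BBC3 was above BCL2L11 in the combination group and below it in the other 3.

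**Figure D1:**
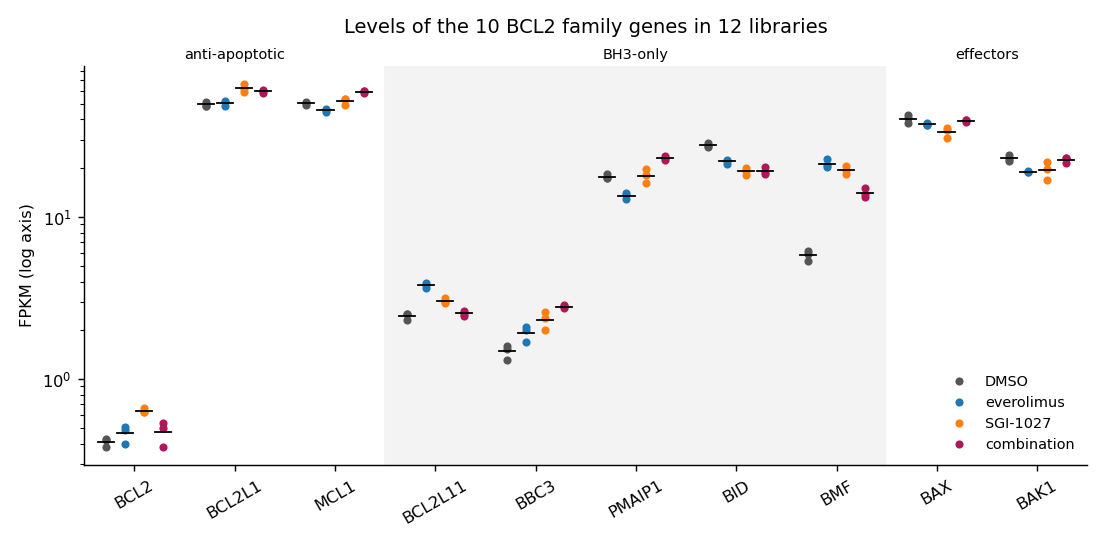
FPKM of the 10 genes on a log axis in the 12 libraries, grouped by role. Points are libraries, coloured by group, and black lines are means of 3. MCL1 and BCL2L1 lie at the top, BCL2 at the bottom, and BMF makes the widest move, from 5.82 FPKM in DMSO to 21.3 with everolimus.

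Each treated group was then compared with DMSO to ask which of the 10 genes responded. The test was edgeR's quasi-likelihood F-test, and a gene was called at a Benjamini-Hochberg adjusted p under 0.05 over all tested genes. With everolimus 3 of the 10 genes were higher (BMF, BCL2L11, BBC3) and 4 lower (PMAIP1, BID, BAK1, MCL1), where 27.2% of all tested genes were called higher and 29.2% lower. With SGI-1027 5 were higher (BMF, BBC3, BCL2, BCL2L1, BCL2L11) and 3 lower (BID, BAX, BAK1), against 32% and 30.6% of all tested genes. With both drugs 5 were higher (BMF, BBC3, PMAIP1, BCL2L1, MCL1) and 1 lower (BID), against 32.8% and 33.4%. Calls covered 56.4%, 62.6% and 66.2% of all tested genes in the everolimus, SGI-1027 and combination groups, so a call alone does not set the family apart. The median log2 fold change of the 10 genes was -0.05, 0.17 and 0.20 in the everolimus, SGI-1027 and combination groups, and that of all tested genes was 0.00, 0.02 and 0.01.

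Under the cut-off of the study, an unadjusted p under 0.05 with a log2 fold change of 1 or more in size, BMF was the one gene of the 10 that was called, and it was higher in each treated group. That cut-off called 3.89%, 6.25% and 7.25% of all tested genes higher with everolimus, SGI-1027 and both drugs, and 0.903%, 1.07% and 2.71% lower. The other 9 genes stayed under that size of change in every treated group.

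**Figure D2:**
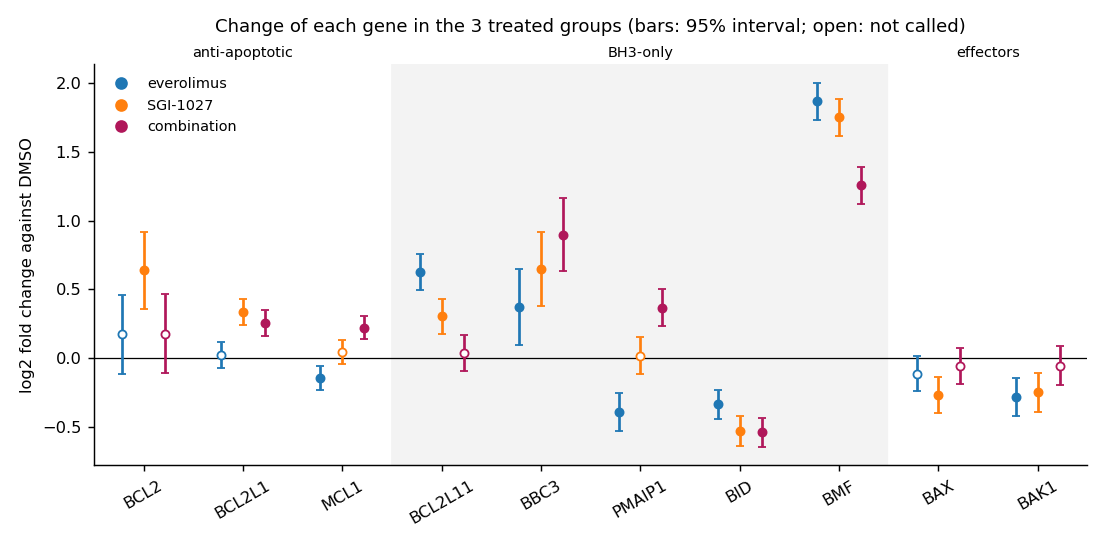
Log2 fold change against DMSO of the 10 genes with everolimus, SGI-1027 and both drugs. Bars are 95% intervals from the edgeR fit, filled points were called at an adjusted p under 0.05 and open points were not. BMF stands above the others in each treated group, and BID is below 0 in all 3.

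BMF, a BH3-only protein that is held on the actin and myosin cytoskeleton in healthy cells and set free by stress, gave the largest change. RefSeq (GRCh38.p14) lists 2 starts for it on the minus strand of chromosome 15. Both windows of 250 bases before the start are printed 5′ to 3′ because one drug of the study acts on DNA methylation, and capitals mark every CpG, the site of that mark:
BMF start 1, chr15:40106967-40107216: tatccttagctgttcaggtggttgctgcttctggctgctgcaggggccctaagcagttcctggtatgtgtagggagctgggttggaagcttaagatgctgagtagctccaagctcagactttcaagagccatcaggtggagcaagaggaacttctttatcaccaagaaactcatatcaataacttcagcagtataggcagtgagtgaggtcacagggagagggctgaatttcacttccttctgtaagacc
BMF start 2, chr15:40108880-40109129: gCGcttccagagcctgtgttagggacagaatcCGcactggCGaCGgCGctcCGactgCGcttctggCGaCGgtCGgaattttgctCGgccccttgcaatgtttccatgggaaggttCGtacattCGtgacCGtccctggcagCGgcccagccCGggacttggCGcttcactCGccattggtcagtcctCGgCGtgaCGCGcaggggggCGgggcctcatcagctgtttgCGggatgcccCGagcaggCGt
The first window holds 0 CpG and the second 26, where the median over 35116 promoter windows of this length was 11 (quartiles 3 and 23). The transcribed bases after the second start were found in a GENCODE v29 transcript and those after the first were not, and the counts per gene do not tell which start was used. Methylation was not measured here.

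BMF stood at 29.2, 26.8 and 30.9 CPM in the DMSO libraries, where CPM are counts scaled to a common library size with TMM factors. The everolimus libraries had 105, 112 and 101 CPM, the SGI-1027 libraries 91.6, 97.6 and 103, and the combination libraries 74.3, 65.3 and 68.0. All treated libraries lay above all DMSO libraries, and all combination libraries lay below all single-drug libraries. The rise against DMSO was 3.65-fold with everolimus (log2 fold change 1.87 ± 0.064 SE, adjusted p = 3.62e-13), 3.36-fold with SGI-1027 (1.75 ± 0.064, adjusted p = 2.14e-13) and 2.39-fold with both (1.26 ± 0.064, adjusted p = 7.92e-12). By log2 fold change BMF ranked 71st from the highest of 12841 genes with everolimus, 214th with SGI-1027 and 625th with both drugs. Adding SGI-1027 to everolimus lowered BMF by 34.5% (log2 fold change -0.61, adjusted p = 2.10e-07), and adding everolimus to SGI-1027 lowered it by 28.9% (-0.49, adjusted p = 1.03e-05). The single drugs were not told apart, with a log2 difference of -0.12 for SGI-1027 against everolimus (95% interval -0.24 to 0.01, adjusted p = 0.164).

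BCL2L11 encodes BIM, which binds every anti-apoptotic member and can engage BAX directly, and it is a known target of FOXO factors. Its single window, on the plus strand, is shown as an example of a CpG-dense promoter, again with CpGs in capitals:
BCL2L11, chr2:111120664-111120913: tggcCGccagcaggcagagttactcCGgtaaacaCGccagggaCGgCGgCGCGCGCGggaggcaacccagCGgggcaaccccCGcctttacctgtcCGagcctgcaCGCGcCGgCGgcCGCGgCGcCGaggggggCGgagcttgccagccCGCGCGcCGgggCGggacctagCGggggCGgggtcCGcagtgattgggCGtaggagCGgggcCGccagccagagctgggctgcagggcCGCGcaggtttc
This window holds 34 CpG. It has 1 copy of GTAAACA, the FOXO core motif searched on both strands, starting 223 bases before the start, and 2.98% of all promoter windows hold that motif. The same window holds 3 copies of the GC box GGGCGG, found in 42.6% of all windows. Other motifs were searched as well, and the BAX window, not printed here, holds 4 copies of the E-box core CACGTG. A match describes the letters only.

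In DMSO BCL2L11 was at 19.4, 18.02 and 19.5 CPM. It was at 29.5, 28.0 and 30.3 CPM with everolimus, at 22.6, 24.4 and 23.2 with SGI-1027, and at 18.8, 19.2 and 20.2 with both drugs. The libraries of each single drug lay above all DMSO libraries, and those of the combination overlapped DMSO. BCL2L11 rose 1.54-fold with everolimus (log2 fold change 0.63 ± 0.0607, adjusted p = 9.76e-08) and 1.23-fold with SGI-1027 (0.30 ± 0.0615, adjusted p = 3.30e-04). With both drugs the log2 fold change was 0.03 (95% interval -0.10 to 0.16, adjusted p = 0.653). The combination was lower than everolimus by 0.59 (adjusted p = 3.33e-07) and lower than SGI-1027 by 0.27 (adjusted p = 0.00412) on the log2 scale. Forms of BIM made by splicing share this row and were not separated.

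BBC3, a BH3-only gene known as a target of p53 and also driven by other stress factors, has 4 CpG in its window, and it is shown for contrast with the dense windows of BCL2L11 and PMAIP1:
BBC3, minus strand, chr19:47232668-47232917: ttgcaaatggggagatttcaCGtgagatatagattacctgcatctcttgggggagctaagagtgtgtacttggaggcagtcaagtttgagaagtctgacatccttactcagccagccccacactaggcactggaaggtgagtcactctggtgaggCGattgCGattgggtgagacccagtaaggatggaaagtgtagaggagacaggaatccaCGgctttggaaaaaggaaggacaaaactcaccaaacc
PMAIP1, plus strand, chr18:59899746-59899995: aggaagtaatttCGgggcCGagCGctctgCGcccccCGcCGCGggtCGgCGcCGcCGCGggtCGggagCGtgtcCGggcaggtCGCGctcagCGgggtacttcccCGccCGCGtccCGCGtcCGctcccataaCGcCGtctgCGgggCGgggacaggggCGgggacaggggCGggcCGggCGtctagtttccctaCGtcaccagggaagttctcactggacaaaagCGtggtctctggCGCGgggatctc
The BBC3 window holds 1 copy each of CACGTG, the E-box core, and TGACTCA, the AP-1 core, found in 6.34% and 4.2% of all windows. The PMAIP1 window holds 36 CpG and 4 copies of the GC box GGGCGG, a motif found in 42.6% of all windows.

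BBC3 was at 3.78, 3.67 and 3.17 CPM in DMSO and at 4.05, 4.71 and 4.96 CPM with everolimus. SGI-1027 gave 5.67, 6.20 and 4.80 CPM and both drugs 6.75, 6.60 and 6.44. The treated libraries all lay above DMSO, and the everolimus and SGI-1027 libraries overlapped. BBC3 rose 1.86-fold with both drugs (log2 fold change 0.90 ± 0.126, adjusted p = 5.49e-06) and 1.57-fold with SGI-1027 (0.65 ± 0.128, adjusted p = 2.46e-04). The rise with everolimus was 1.29-fold (0.37 ± 0.130, adjusted p = 0.0210). Leaving out DMSO replicate 3 (adjusted p = 0.0889), everolimus replicate 2 (0.0597) or everolimus replicate 3 (0.0845) ended that call. The combination was above everolimus by 0.53 (adjusted p = 0.00226), and its difference of 0.25 from SGI-1027 was not called (95% interval -0.01 to 0.50, adjusted p = 0.171).

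PMAIP1 encodes NOXA, which binds mainly MCL1 and promotes its breakdown. In DMSO it was at 33.2, 33.4 and 35.9 CPM and with everolimus at 27.2, 26.1 and 24.7. With SGI-1027 it was at 37.7, 34.8 and 31.3 CPM and with both drugs at 42.8, 45.3 and 43.9. The everolimus libraries were the lowest, the combination libraries were the highest, and SGI-1027 overlapped DMSO. PMAIP1 fell by 23.9% with everolimus (log2 fold change -0.39 ± 0.0656, adjusted p = 5.56e-05) and rose by 28.7% with both drugs (0.36 ± 0.0637, adjusted p = 6.43e-05). With SGI-1027 the log2 fold change was 0.02 (95% interval -0.12 to 0.15, adjusted p = 0.828). Adding SGI-1027 to everolimus raised PMAIP1 1.69-fold (0.76 ± 0.0649, adjusted p = 3.15e-08).

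BID, which caspase-8 cuts to link death receptors to mitochondria, fell in all 3 treated groups. Its CPM were 76.2, 73.4 and 72.7 in DMSO and 59.5, 56.3 and 60.3 with everolimus. They were 51.3, 53.8 and 48.9 with SGI-1027 and 48.7, 53.9 and 50.2 with both drugs. No treated library reached DMSO, and the SGI-1027 and combination libraries overlapped. BID was lower by 20.9% with everolimus (log2 fold change -0.34 ± 0.0506, adjusted p = 1.79e-05), by 30.7% with SGI-1027 (-0.53 ± 0.051, adjusted p = 6.08e-08) and by 31.2% with both drugs (-0.54 ± 0.051, adjusted p = 3.43e-08). The combination was below everolimus by 0.20 (adjusted p = 0.00409) and differed from SGI-1027 by -0.01 on the log2 scale (95% interval -0.12 to 0.10, adjusted p = 0.914).

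**Figure D3:**
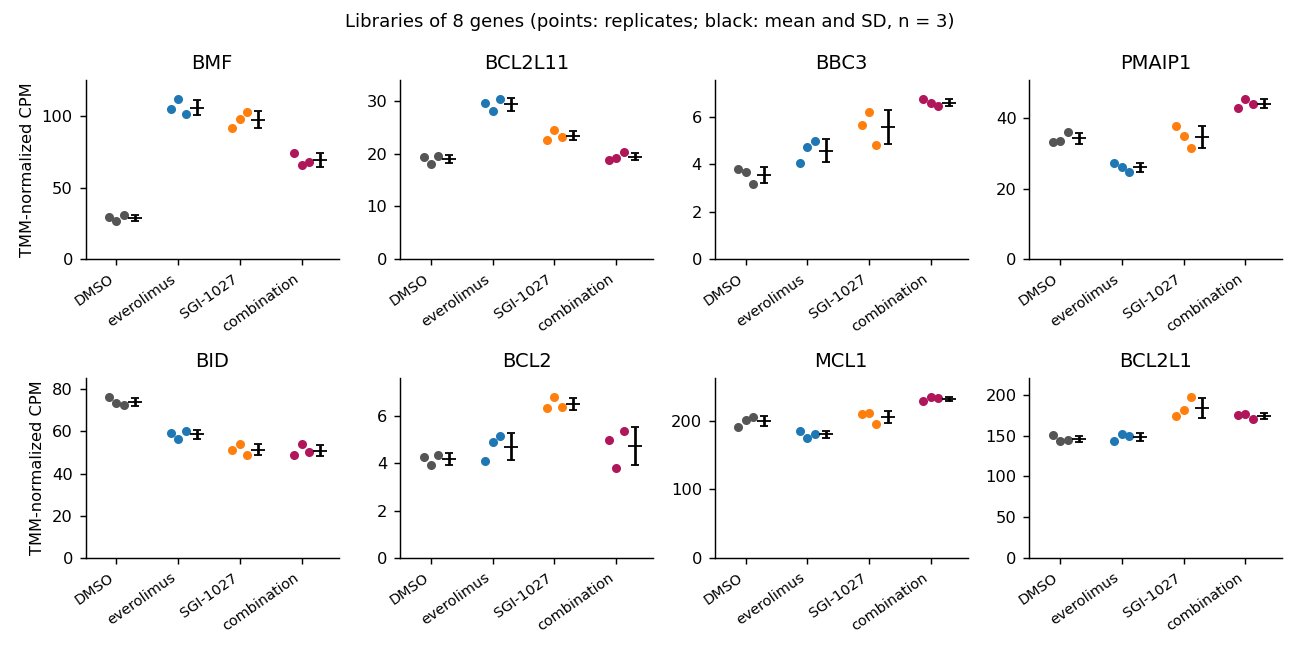
TMM-normalized CPM of 8 of the 10 genes by library, with linear axes from 0. Coloured points are replicates, and black marks give the mean and SD of 3. BMF and BCL2L11 are lower with both drugs than with either drug, whereas PMAIP1 and MCL1 are highest with both drugs and BID is lower in every treated group than in DMSO.

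Among the anti-apoptotic genes, BCL2L1 and MCL1 carry most of the transcript and BCL2 little. MCL1, a short-lived protein that guards mainly BAK1, was at 192, 201 and 206 CPM in DMSO and at 185, 174.9 and 182 with everolimus. It was at 210.2, 212 and 196 CPM with SGI-1027 and at 229, 234 and 234 with both drugs. The combination libraries lay above all others and the everolimus libraries below all others, the same order of the ends as for PMAIP1. MCL1 was higher by 16.6% with both drugs (log2 fold change 0.22 ± 0.0405, adjusted p = 1.03e-04) and lower by 9.57% with everolimus (-0.15 ± 0.0406, adjusted p = 0.00543). The everolimus call was lost with upper-quartile scaling (-0.07, adjusted p = 0.149). With SGI-1027 the log2 fold change was 0.05 (95% interval -0.04 to 0.13, adjusted p = 0.340), which was called with upper-quartile scaling (adjusted p = 0.0402). Adding SGI-1027 to everolimus raised MCL1 by 28.9% (0.37 ± 0.0406, adjusted p = 9.10e-07).

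BCL2L1 responded to SGI-1027 and not detectably to everolimus alone. Its CPM were 151, 144 and 144 in DMSO, and 143, 152 and 150.0 with everolimus. The SGI-1027 libraries had 174, 181 and 197 CPM and the combination libraries 175.03, 177 and 170.0. Both groups that received SGI-1027 lay above the other 2 groups in every library. BCL2L1 rose by 25.9% with SGI-1027 (log2 fold change 0.33 ± 0.045, adjusted p = 4.28e-06) and by 19.03% with both drugs (0.25 ± 0.045, adjusted p = 8.28e-05), and its change with everolimus was 0.02 (95% interval -0.07 to 0.12, adjusted p = 0.685). SGI-1027 exceeded everolimus by 0.31 (adjusted p = 5.94e-05). The long form protects cells and the short splice form promotes death, and the gene count holds both.

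BCL2, the lowest of the 10, was higher with SGI-1027 alone. It was at 4.27, 3.91 and 4.37 CPM in DMSO and at 4.08, 4.89 and 5.17 with everolimus. It was at 6.35, 6.80 and 6.39 CPM with SGI-1027 and at 5.00, 3.81 and 5.39 with both drugs. The SGI-1027 libraries lay above the other 9, which overlapped. The rise with SGI-1027 was 1.56-fold (log2 fold change 0.64 ± 0.133, adjusted p = 4.21e-04), and the changes with everolimus (0.17, 95% interval -0.11 to 0.46, adjusted p = 0.292) and both drugs (0.18, -0.11 to 0.47, adjusted p = 0.261) were not called. SGI-1027 exceeded everolimus by 0.46 (adjusted p = 0.0161) and the combination was below SGI-1027 by 0.46 (adjusted p = 0.0182). Combination replicate 2 was the lowest of all libraries: without it the change with both drugs was 0.32 and called (adjusted p = 0.0465) and the difference from SGI-1027 was not (adjusted p = 0.115). The difference from the combination was also lost without SGI-1027 replicate 2 (adjusted p = 0.0590), and that from everolimus without everolimus replicate 1 (adjusted p = 0.0886).

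The effectors BAX and BAK1, which form the pore, were both lower with SGI-1027, and BAK1 also with everolimus, and neither change with both drugs was called. BAX was at 33.6, 36.6 and 38.7 CPM in DMSO, at 34.4, 33.0 and 33.2 with everolimus, at 30.9, 31.8 and 27.6 with SGI-1027 and at 34.99, 35.2 and 34.2 with both drugs. BAK1 was at 50.5, 55.7 and 52.9 CPM in DMSO, at 43.6 in each everolimus library, at 49.5, 45.4 and 39.0 with SGI-1027 and at 48.9, 52.4 and 52.0 with both drugs. The SGI-1027 libraries of both genes lay below DMSO, as did the everolimus libraries of BAK1, and the combination libraries of both genes overlapped DMSO. BAX fell by 17.1% with SGI-1027 (log2 fold change -0.27 ± 0.0621, adjusted p = 0.00103), and its change with everolimus was -0.11 (95% interval -0.24 to 0.02, adjusted p = 0.128), called without DMSO replicate 1 (adjusted p = 0.0279). BAK1 fell by 17.8% with everolimus (-0.28 ± 0.0673, adjusted p = 0.00155) and by 15.8% with SGI-1027 (-0.25 ± 0.0672, adjusted p = 0.00374). With both drugs the changes of BAX (-0.06, 95% interval -0.19 to 0.07, adjusted p = 0.403) and BAK1 (-0.05, -0.20 to 0.09, adjusted p = 0.483) were not called. Reads of BAK1 could be shared with its 2 processed pseudogenes, BAK1P1 and BAK1P2.

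The combination was compared with each single drug directly. Against everolimus 5 genes were higher (PMAIP1, BBC3, MCL1, BCL2L1, BAK1) and 3 lower (BMF, BCL2L11, BID), where 20.1% of all tested genes were called higher and 19.2% lower (39.3% in all). Against SGI-1027 3 were higher (PMAIP1, MCL1, BAX) and 3 lower (BMF, BCL2L11, BCL2), where 9.4% and 10.2% of all tested genes were called (19.6% in all). The higher BAX was 0.21 on the log2 scale (adjusted p = 0.0230), a call lost without SGI-1027 replicate 3 (adjusted p = 0.1), combination replicate 1 (0.0607) or combination replicate 2 (0.0770). BAK1 differed from SGI-1027 by 0.19 (95% interval 0.05 to 0.33, adjusted p = 0.0514), a difference called by DESeq2 (adjusted p = 0.0333), without the filter (0.0261), on log2(FPKM + 0.1) (0.0484), without DMSO replicate 1 (0.0352) or without SGI-1027 replicate 1 (0.00752). SGI-1027 against everolimus had 4 higher (PMAIP1, BCL2L1, MCL1, BCL2) and 2 lower (BCL2L11, BID), where 13% and 9.51% of all tested genes were called (22.5% in all). All 3 anti-apoptotic genes were thus higher with SGI-1027 than with everolimus. BID was lower by 0.19 (adjusted p = 0.0116), which was lost without everolimus replicate 3 (adjusted p = 0.0551). By the cut-off of the study 0 of the 10 genes were called in these 3 comparisons, where it called 2.44% of all tested genes higher and 1.46% lower for the combination against everolimus, 0.428% and 1.21% against SGI-1027, and 1.53% and 0.265% for SGI-1027 against everolimus.

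Whether the drugs acted additively was asked with an interaction contrast, the combination set against the sum of the single-drug changes on the log2 scale. It was called for 8 of the 10 genes, 5 above the sum and 3 below it, where 23.6% of all tested genes were called above and 22.1% below (45.6% in all). BMF lay furthest below: the single-drug changes summed to 3.62, the combination gave 1.26, and the interaction was -2.36 ± 0.0879 (adjusted p = 3.55e-12), the 48th lowest of 12841 genes. BCL2L11 followed with -0.90 ± 0.0863 (adjusted p = 2.09e-07) and BCL2 with -0.64 ± 0.190 (adjusted p = 0.0108). PMAIP1 lay furthest above the sum, by 0.74 ± 0.0914 (adjusted p = 3.85e-06). The effectors BAK1 (0.48 ± 0.0952, adjusted p = 5.10e-04) and BAX (0.32 ± 0.0876, adjusted p = 0.00578), MCL1 (0.32 ± 0.0573, adjusted p = 1.84e-04) and BID (0.33 ± 0.0723, adjusted p = 0.00126) were above it too. BBC3 was not told apart from the sum (-0.12, 95% interval -0.50 to 0.25, adjusted p = 0.599). For BCL2L1 the interaction was -0.10 (95% interval -0.24 to 0.03, adjusted p = 0.193), called with upper-quartile scaling (-0.18, adjusted p = 0.0262). Under the cut-off of the study BMF alone was called, below the sum, as were 4.63% of all tested genes, and 1.14% were called above it.

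**Figure D4:**
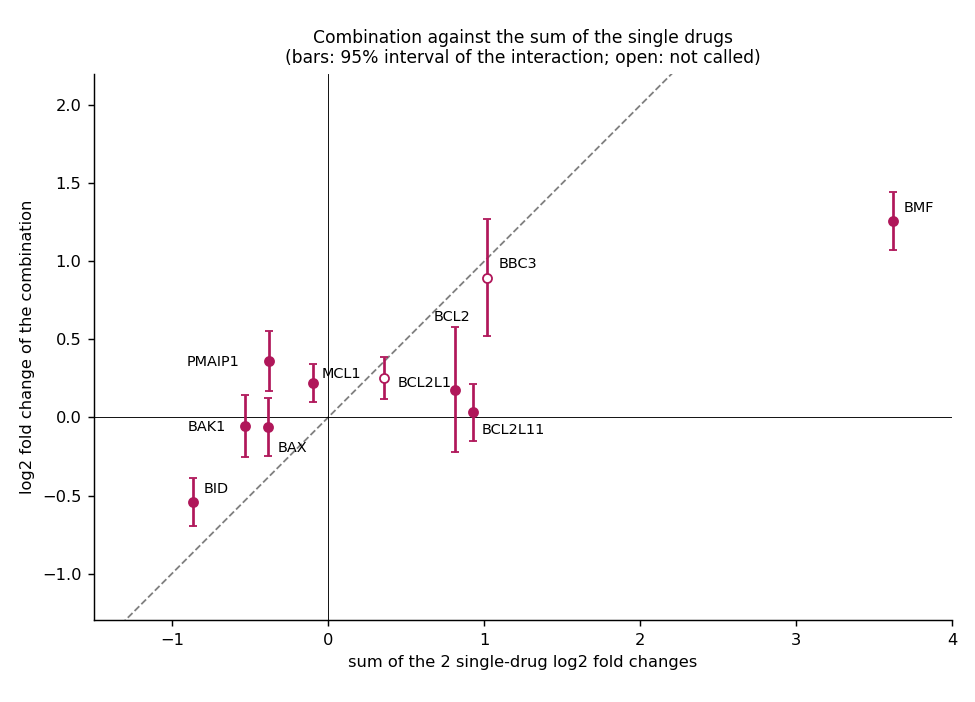
Log2 fold change with both drugs (vertical) against the single-drug log2 fold changes added up (horizontal) for the 10 genes. The dashed line marks equality, bars are 95% intervals of the interaction, and open points were not called. BMF lies furthest below the line, with a sum of 3.62 and an observed 1.26, and PMAIP1 furthest above it.

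The make-up of the BH3-only transcripts shifted, and their sum was higher in every treated library than in any DMSO library. Per gene length, the 5 BH3-only genes summed to 55.2 FPKM in DMSO, 62.6 with everolimus, 62.1 with SGI-1027 and 61.9 with both drugs. BID made up 50.2% of that sum in DMSO and 35.2%, 30.9% and 31.2% in the everolimus, SGI-1027 and combination groups. BMF made up 10.5% in DMSO and then 34.0%, 31.5% and 22.8%, and PMAIP1 32.1% and then 21.7%, 28.9% and 37.4%. The leading BH3-only transcript was therefore BID in DMSO and PMAIP1 in the combination group. The 3 anti-apoptotic genes summed to 100.2 FPKM in DMSO, 96.6 with everolimus, 114.9 with SGI-1027 and 119.7 with both drugs. The ratio of the BH3-only to the anti-apoptotic sum was 0.551, 0.648, 0.540 and 0.517 in the same order. The everolimus libraries (0.634 to 0.658) lay above all others, and the combination libraries (0.516 to 0.520) lay below DMSO (0.542 to 0.558). The SGI-1027 libraries (0.516 to 0.555) overlapped both DMSO and the combination, so their place is not resolved. These sums and shares are descriptions without a test, and proteins were not measured.

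**Figure D5:**
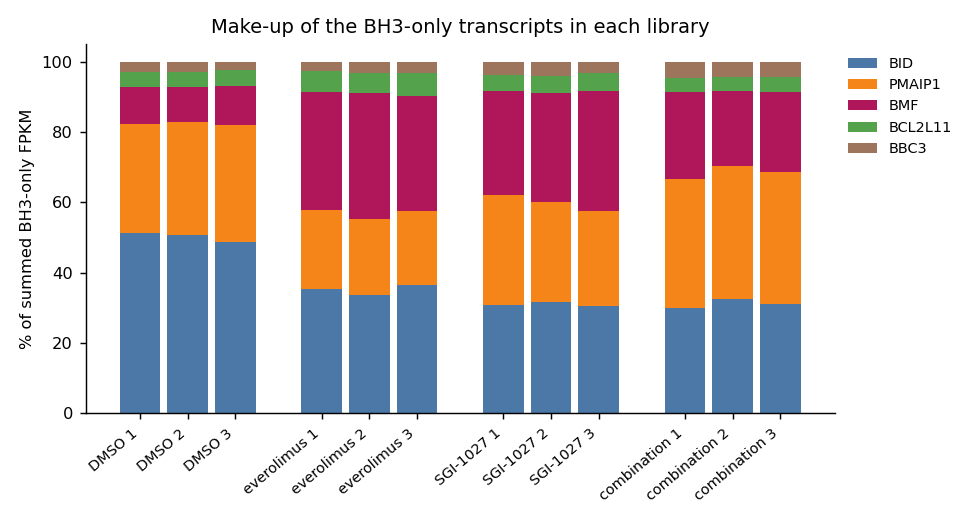
Share of each of the 5 BH3-only genes in their summed FPKM, in percent, for each of the 12 libraries. BID leads in every DMSO library with a mean of 50.2%, BMF takes a mean of 34.0% with everolimus, and PMAIP1 a mean of 37.4% with both drugs.

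Of 13 other BCL2 family genes 11 were tested, and with both drugs 6 were higher and 5 lower, where 32.8% of all tested genes were higher and 33.4% lower. The 11 tested and the 6 higher genes both include HRK, which passed the filter on low counts through the combination libraries alone. The count of 6 set beside 32.8% is therefore not free of that filter. BNIP3L (NIX), a mitophagy receptor, rose 0.99 on the log2 scale with both drugs (adjusted p = 4.21e-12), near its 1.03 with everolimus and 0.88 with SGI-1027, and its interaction was -0.92 (adjusted p = 8.95e-09). BIK, a BH3-only protein of the endoplasmic reticulum, rose by 1.17, 1.51 and 1.15 with everolimus, SGI-1027 and both drugs (adjusted p = 0.00607, 5.56e-04 and 0.00590) at 11 to 55 counts a library. BOK, an effector relative, rose by 0.45, 0.23 and 0.22. BCL2L12 fell by 0.56, 0.76 and 0.93, and BCL2L15, with 20 to 124 counts a library, fell by 1.13, 1.04 and 2.22. BCL2A1 and BCL2L2 (BCL-w), both anti-apoptotic, were higher with both drugs, at 0.76 (adjusted p = 0.00125) and 0.24 (adjusted p = 0.00448). BAD, BNIP3 and BCL2L13 fell with each treatment, by 0.41, 0.24 and 0.18 with both drugs.

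HRK, a BH3-only gene best known from neurons, had 0 counts in all 3 DMSO libraries. The everolimus libraries had 0, 2 and 1 counts, the SGI-1027 libraries 5, 8 and 4, and the combination libraries 21, 13 and 24. Every library with SGI-1027 had counts, and every combination library had more than every other library. HRK passed the filter on low counts through the combination libraries alone, so no p-value is given for it. HRK summed to 17 counts with SGI-1027 and 58 with both drugs. Scaled by library totals, these stood 5.72-fold and 19.7-fold over a floor of 3 counts for the DMSO group. That floor covers counting error in DMSO only. The treated counts entered as observed, so these folds are not lower bounds.

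Downstream of the mitochondrion, of 12 tested genes of the apoptosome and caspases, 0 were higher and 10 lower with both drugs, 9 were lower with SGI-1027 and 6 with everolimus, and 0 were higher in any of the 3 by edgeR, also at an unadjusted p under 0.05 and by DESeq2. Of all tested genes 33.4%, 30.6% and 29.2% were called lower by the adjusted p of edgeR with both drugs, SGI-1027 and everolimus. The shares called higher were 32.8%, 32% and 27.2%. No share of all tested genes is given for the unadjusted p or DESeq2. Their median log2 fold changes were -0.14 with everolimus, -0.29 with SGI-1027 and -0.38 with both drugs, beside 0.00, 0.02 and 0.01 for all tested genes. DFFA, the inhibitor of the caspase-activated DNase, fell by 0.62, 0.68 and 0.70, and PARP1, a caspase substrate in DNA repair, by 0.33, 0.49 and 0.54. Of 10 inhibitors of apoptosis and their antagonists, 4 were higher and 2 lower with both drugs, near the 32.8% and 33.4% of all tested genes. XIAP, a direct caspase inhibitor, rose by 0.28, 0.37 and 0.48, and BIRC5 (survivin), which also serves in mitosis, fell by 0.52, 0.97 and 1.21. With both drugs HTRA2, which antagonizes XIAP, rose by 0.19 (adjusted p = 0.00967) and BIRC3 fell by 0.38 (adjusted p = 1.51e-05).

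Upstream of BID, 7 of 13 tested death receptor genes were higher and 4 lower with both drugs, where 32.8% of all tested genes were higher and 33.4% lower. TNFRSF10B, a TRAIL receptor, rose by 0.41 with SGI-1027 and 0.71 with both drugs and was at -0.02 with everolimus (adjusted p = 0.755). CASP8 rose by 0.38 with SGI-1027 and 0.45 with both drugs. TNFRSF1A and the decoy TNFRSF10D fell with both drugs by 0.70 and 0.64. Of 15 tested transcription regulators of the family, 8 were higher and 4 lower with both drugs, beside the same shares of all tested genes. DDIT3 (CHOP), a stress factor known to induce BIM and PUMA, rose by 0.76 with SGI-1027 and 1.05 with both drugs, and was at 0.11 with everolimus (adjusted p = 0.248). STAT3, known to drive MCL1 and BCL2L1, fell by 0.15, 0.11 and 0.37. NFKB1, an NF-kB subunit, fell by 0.24, 0.17 and 0.20. The 3 listed FOXO genes, named after their values were seen because the BCL2L11 window holds a FOXO motif, did not share one pattern. FOXO3 rose by 0.35, 0.44 and 0.27 with an interaction of -0.53 (adjusted p = 2.21e-06), and FOXO4 by 0.92, 0.67 and 0.73 with an interaction of -0.87 (adjusted p = 3.40e-05). FOXO1 rose by 0.40, 0.77 and 1.17, with an interaction of -0.01 (adjusted p = 0.979). These are transcript levels, and a link of any FOXO gene to BCL2L11 was not tested. Of 16 genes for turnover and tethering of the family, 0 were higher and 8 lower with both drugs by edgeR. Of all tested genes 32.8% were called higher and 33.4% lower. With everolimus 2 of the 16 were higher and 7 lower, against 27.2% and 29.2%. With SGI-1027 3 were higher and 9 lower, against 32% and 30.6%. For both drugs DESeq2 also gave 0 higher and 8 lower, and an unadjusted p under 0.05 gave 0 and 9. No share of all tested genes is given for these other rules. VDAC1, a channel of the outer membrane, fell by 0.58, 0.64 and 0.69, and DYNLL1, the light chain that can tether BIM, by 0.21, 0.42 and 0.45.

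The genes most like BMF, BBC3 and BCL2 over the 12 libraries were sought by the Pearson r of log2 CPM among 11455 genes. Since the libraries fall into 4 groups, r mostly describes the group means. BMF was followed most closely by COL4A1 (r = 0.994), KDELR3 (0.993) and SOX4 (0.990). COL4A1, a basement membrane collagen, was at 361 ± 14.4, 699.9 ± 10.3, 661 ± 8.44 and 569 ± 14.3 CPM in DMSO, everolimus, SGI-1027 and combination libraries, the order seen for BMF. BBC3 was followed by IFFO1 (0.975), MAFK (0.969) and ZNF841 (0.969). BCL2 had the loosest matches, CREB1 (0.896), TNKS1BP1 (0.861) and WNT2B (0.857).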

How the data were processed

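RNA of 786-O cells from 4 groups of 3 libraries was sequenced. The authors deposited raw counts per gene symbol and FPKM values for the same libraries. For the 10 genes each FPKM equalled the count scaled by the library total and 1 length per gene, so for them both tables hold the same data. Library kit, aligner and strand setting are uncertain: the labels and the study's methods name different kits, and the submitters' processing notes name the mouse builds GRCm38 and mm10 although symbols are human. In GENCODE v29 another gene overlaps 8 of the 10 genes, on the opposite strand for 6, and these reads cannot be told apart.

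Counts were fitted with edgeR 4.0.16 in R 4.3.3 (filterByExpr, TMM, quasi-likelihood, 12 libraries, 12841 of 17085 genes tested, prior count 0.125), with Benjamini-Hochberg adjustment over all tested genes and 95% intervals from the fit. DESeq2 1.42.0, limma 3.58.1 on log2(FPKM + 1) and log2(FPKM + 0.1), other scalings, filters and left-out libraries were alternatives. Scripts were tested on simulated data. Samples were grouped by treatment label. Replicate numbers did not pair libraries (18 correlations of deviations, -0.176 to 0.0358).

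The 10 genes and all lists were chosen with earlier results of these data known. Of each further list, the 2 genes with the smallest p per direction with both drugs (mean of at least 50 counts) were named, any tested gene of the wider BCL2 family, and 3 likeness matches for each of the 3 genes with the largest changes. One gene that this rule names is not reported here. Promoter windows are from RefSeq, 250 bases before each start, and motifs were matched by letters on both strands, with overlaps counted. Protein sequences were not used here.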

Additional observations from a re-analysis of the deposited data

Results flagged for a closer look

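The effect of one drug differed by the presence of the other for 8 of the 10 genes, by the interaction contrast of edgeR with Benjamini-Hochberg adjustment over all tested genes. The log2 interaction was -2.36 for BMF, -0.90 for BCL2L11 and -0.64 for BCL2. It was 0.74 for PMAIP1, 0.48 for BAK1, 0.33 for BID, 0.32 for MCL1 and 0.32 for BAX. The sample labels and the study's methods put everolimus at the same dose alone and in the combination, whereas the treatment protocol in the records does not. Of all tested genes 45.6% had a called interaction.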

How the results depend on the processing

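Under the cut-off of the study the counts of the 10 genes called fell to 1 higher (BMF) and 0 lower against DMSO in each treated group, to 0 in either direction in the 3 comparisons between treated groups, and to 0 above and 1 below the sum in the interaction, because that cut-off adds a minimum change. Leaving out 1 library at a time gave 1 to 2 genes lower with SGI-1027 than with everolimus, and kept direction and call in 817 of 840 values. DESeq2 kept 69 of 70 values, the replicate block 70 of 70, a minimum of 10 counts in every library 70 of 70, and fits of only the compared groups 60 of 60 (no such fit could be made for the interaction). The replicate block changed no call, and 3, 5 and 5 genes were still called higher with everolimus, SGI-1027 and both drugs. Upper-quartile scaling kept 65 of 70, no filter 68, and limma on log2(FPKM + 1) and log2(FPKM + 0.1) 69 and 68. Signs turned only in differences that were near 0 and never called. PMAIP1 with SGI-1027 went to -0.00177 without the filter and to between -0.0505 and 0.084 without 1 library. BAK1 with both drugs went to 0.000776, and BCL2 in the combination against everolimus to -0.0146, with upper-quartile scaling. BID in the combination against SGI-1027 went to 0.00802 and 0.00839 with limma on log2(FPKM + 1) and log2(FPKM + 0.1). Without 1 library the last 2 reached between -0.0993 and 0.145 (BCL2) and between -0.0517 and 0.0238 (BID), and BAK1 with SGI-1027 against everolimus between -0.0467 and 0.124. The cause was not tested. Of the 10 genes, depth limits BCL2 and BBC3 most, which had the fewest counts.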
